A study of Homo sapiens and Mus musculus with 12 samples.

Results

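The ETS family is a group of transcription factors that share the ETS DNA-binding domain, and 9 of its genes were followed here through ponatinib treatment of human and mouse breast cancer cells. The genes were chosen by name, with earlier results of these data known. They are the PEA3 group (ETV1, ETV4 and ETV5), the epithelial ETS factors ELF3 and EHF, and 4 further members (ETS1, ETS2, ELF4 and ELK3). The mouse genes of the same symbols were taken with them. All 18 were found among the gene identifiers, 9 of 63677 in MDA-MB-231 and 9 of 47729 in 4T1. MDA-MB-231 is a human triple-negative breast cancer line and 4T1 a mouse mammary carcinoma line. Both were labelled as wild-type epithelial cells of the breast, kept in DMEM with fetal bovine serum, and exposed for 24 h to 1 μmol/L ponatinib, a multikinase inhibitor developed against BCR-ABL, or to its solvent DMSO. RNA-seq was run on 3 libraries per group, 12 in all. The labels do not say whether replicates came from separate cultures, so p values measure the spread between these libraries, which may be technical, and each line stands for 1 cell line only.

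The MDA-MB-231 libraries held between 15012884 and 17301760 counts each, those of 4T1 between 17800675 and 18951493. The libraries numbered 1 stood furthest from the others of their group: in MDA-MB-231 DMSO the chi-square per gene was 10.6 and 10.8 for pairs with library 1 and 2.98 for the remaining pair. Of the epithelial markers, CDH1 and GRHL2 held 1 and 0 counts over the 6 MDA-MB-231 libraries, whereas KRT8 stood at 1010, 840 and 818 CPM with DMSO; in 4T1 all 9 epithelial markers were counted. The summed level of 5 leukocyte markers lay between 1.38 and 2.99 CPM in every MDA-MB-231 library. In 4T1 it lay between 222 and 249 CPM with DMSO and between 137 and 155 CPM with ponatinib, nearly all of it Cd14.

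ETS proteins bind purine-rich DNA around a GGAA core and differ mainly in where they are made and which kinases act on them. The PEA3 genes are a classic transcriptional output of receptor tyrosine kinase and ERK signaling: the repressor Capicua (CIC) holds them low, ERK relieves it, and the ubiquitin ligase COP1 turns the proteins over. ETS1 and ETS2 carry an ERK phosphorylation site next to their pointed domain. ELK3 is a ternary complex factor that works with serum response factor, ELF4 is best known in lymphocytes, and ELF3 and EHF are made mainly by differentiated epithelia. In breast cancer the PEA3 factors are linked to invasion through genes such as those of matrix metalloproteinases.

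Stretches of 250 bases before annotated starts were read for 6 of the 9 human genes from a RefSeq promoter table (GRCh38.p14); ETV4, ETV5 and ETS1 had no entry. The 6 genes had 16 such windows. The ETS motif searched for was CCGGAA, a longer and stricter site than the GGAA core, and windows with GGAA alone were not counted. It was found in 3 of the windows, all of ETV1, against 14.5% of 34943 promoter windows of the same length. Of these 3, 2 were overlapping windows that share the match. A Capicua octamer (TGAATGAA, TCAATGAA, TGAATGGA or TCAATGGA) was in 1 window, against 3.17% of all. An AP-1 motif (TGANTCA) was in 1 window of ELF4, against 6.59%. Both strands were searched, and the 3 motifs overlapped nowhere in these windows. One ETV1 window, chr7:13991426-13991675 on the minus strand, held an ETS core 136 bases and a Capicua octamer 125 bases before the start, and it is shown because ETV1 is the PEA3 gene that fell in one line and was not called in the other. ELF3 is shown for both species because it was nearly silent in one line and well expressed in the other. Its windows were chr1:202010337-202010586 (GRCh38.p14, plus strand) and chr1:135186307-135186556 (GRCm39, minus strand, before the GENCODE canonical start of the mouse gene). They were offset, with 156 of 174 aligned bases identical (89.7%). Neither held any of the 3 motifs, although both held the shorter GGAA core. Capitals mark the motif matches in ETV1, and in ELF3 and Elf3 the longest run shared by both, of 22 bases.
ETV1: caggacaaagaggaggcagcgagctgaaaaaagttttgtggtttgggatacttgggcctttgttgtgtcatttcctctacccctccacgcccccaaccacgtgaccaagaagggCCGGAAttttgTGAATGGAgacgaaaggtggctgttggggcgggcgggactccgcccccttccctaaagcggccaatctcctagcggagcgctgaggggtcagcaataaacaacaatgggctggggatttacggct
ELF3: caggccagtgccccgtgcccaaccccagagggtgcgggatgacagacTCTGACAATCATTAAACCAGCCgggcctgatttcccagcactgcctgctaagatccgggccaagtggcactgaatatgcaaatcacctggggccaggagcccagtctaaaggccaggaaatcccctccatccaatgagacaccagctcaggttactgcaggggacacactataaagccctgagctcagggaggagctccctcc
Elf3: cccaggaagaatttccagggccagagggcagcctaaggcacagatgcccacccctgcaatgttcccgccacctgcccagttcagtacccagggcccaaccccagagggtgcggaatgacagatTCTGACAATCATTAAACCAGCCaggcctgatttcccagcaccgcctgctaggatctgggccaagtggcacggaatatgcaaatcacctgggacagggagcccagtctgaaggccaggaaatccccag

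The PEA3 genes fell with ponatinib, all 3 in MDA-MB-231 and 2 of 3 in 4T1, and ETV4 and ETV5 fell further in the human line. At a false discovery rate of 0.05 (edgeR's quasi-likelihood test, adjusted over all genes tested), the MDA-MB-231 background was 26.8% of 14610 genes called lower and 27.2% called higher, so a call alone was common and the sizes carry the description. Levels are given as CPM, counts scaled to a common library size by TMM-adjusted totals, and as these are bulk samples, fewer cells that make a transcript and less of it per cell cannot be told apart.

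ETV4 stood at 99.1, 82.3 and 84.6 CPM in the 3 MDA-MB-231 DMSO libraries and at 7.76, 7.39 and 6.52 CPM with ponatinib. Every treated library was far below every control, and the mean went from 88.7 ± 9.10 to 7.22 ± 0.639 CPM (SD, n = 3). The log2 fold change was -3.62 (SE 0.12, adjusted p = 1.50e-09), the 16th lowest of 14610 genes. In 4T1, Etv4 was counted at 134, 125 and 129 CPM with DMSO and at 45.2, 45.7 and 49.6 CPM with ponatinib. The groups were again well apart, with a log2 fold change of -1.46 (SE 0.08, adjusted p = 1.10e-09), the 301st lowest of 13286. Per kilobase of exon, Etv4 was the second of the 9 genes in 4T1 DMSO, at 40.8 CPM per kb, and ETV4 the third in MDA-MB-231 DMSO, at 25.2 CPM per kb. Exons of ETV4 overlap those of DHX8 on the opposite strand, and DHX8 held 3106 counts with DMSO and 3175 with ponatinib; the strand setting of the counting is not given in the sources used here.

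ETV5, a close paralog of ETV4, read 70.5, 77.0 and 74.6 CPM in MDA-MB-231 DMSO and 8.33, 11.3 and 10.0 CPM with ponatinib. It fell by 2.91 on the log2 scale (SE 0.11, adjusted p = 6.58e-09), which ranked it 41st from the lowest. Etv5 in 4T1 went from 44.6, 45.1 and 38.5 CPM to 23.8, 22.3 and 19.8 CPM. Here, too, no treated library reached a control, and the log2 fold change was -0.96 (SE 0.10, adjusted p = 2.08e-06).

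ETV1 was the least abundant PEA3 gene in both lines and the one that did not fall in both. Its MDA-MB-231 libraries held 11.1, 10.7 and 12.5 CPM with DMSO and 2.90, 4.84 and 3.83 CPM with ponatinib. That was a log2 fold change of -1.57 (SE 0.18, adjusted p = 2.27e-05). Etv1 in 4T1 was close to 1 CPM throughout, at 1.13, 1.11 and 0.820 CPM with DMSO and 1.43, 1.34 and 0.759 CPM with ponatinib. The groups overlapped and the difference did not pass the test (log2 fold change 0.21, SE 0.34, adjusted p = 0.613), on 55 and 68 counts.

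**Figure D1:**
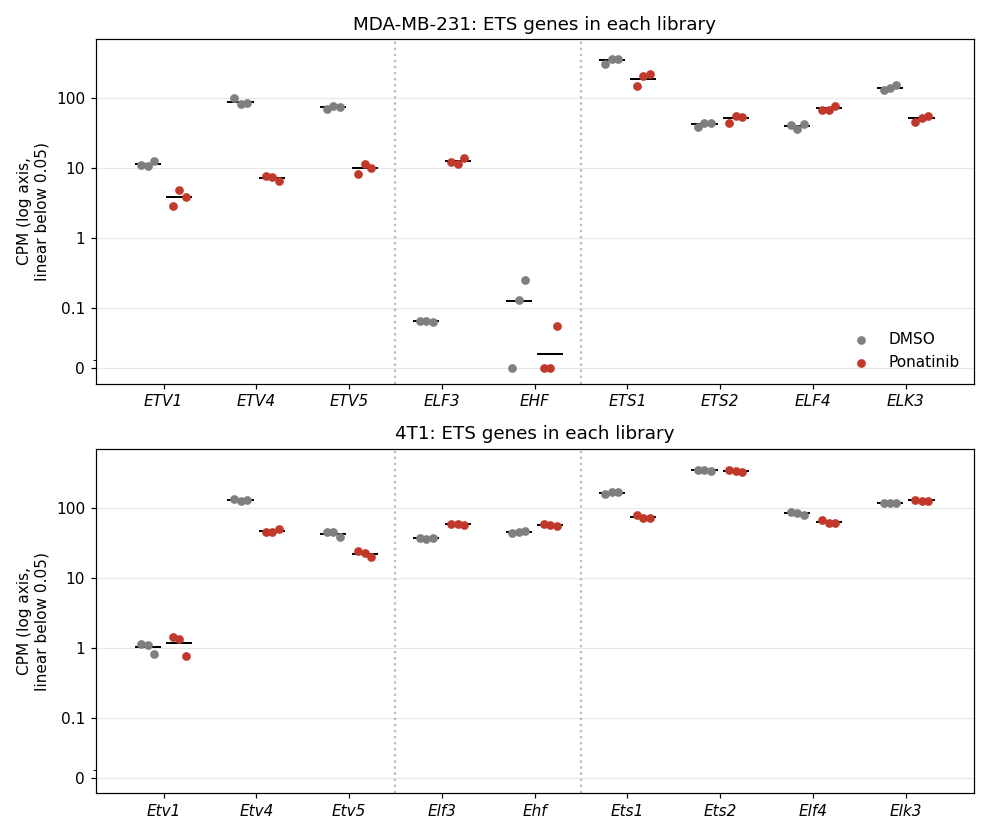
CPM of the 9 ETS genes in each library (points; log axis, linear below 0.05) of MDA-MB-231 and 4T1, grey for DMSO and red for ponatinib, with the mean of 3 libraries as a bar and dotted lines between PEA3, epithelial and further ETS genes. ETV4 drops from a mean of 88.7 to 7.22 CPM in MDA-MB-231, where ELF3 goes from 0.0647 to 12.5 CPM.

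Of the epithelial ETS factors, ELF3 rose in both lines and EHF in 4T1. ELF3, which marks glandular and barrier epithelia, was almost absent from untreated MDA-MB-231 cells, with 1 count in each DMSO library, and held 193, 180 and 255 counts with ponatinib, equal to 12.2, 11.5 and 14.0 CPM. Summed over libraries this was 3 counts against 628, a ratio of 195 with an exact 95% interval from 66.4 to 948 that covers counting error only. The gene entered the test only through its treated libraries. Its fitted log2 fold change of 7.44 (SE 0.30, adjusted p = 6.96e-09) depends on the small count the fit adds and is not a bound; 4 of the 14610 genes ranked higher. The antisense gene ELF3-AS1, which shares exons with ELF3, had 8 counts with DMSO and 18 with ponatinib.

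Elf3 in 4T1 was expressed from the start, at 37.0, 36.0 and 36.6 CPM with DMSO, and read 58.0, 59.1 and 57.3 CPM with ponatinib. The rise was small beside that in the human line but lay well outside the spread (log2 fold change 0.67, SE 0.08, adjusted p = 4.41e-06). Even after treatment the human gene reached 1.75 ± 0.179 CPM per kb (SD, n = 3), below the 12.5 ± 0.172 CPM per kb of Elf3 in untreated 4T1; exon lengths are those of 2 annotations and the values stand side by side without a test.

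EHF, a related factor of glandular epithelia, was at the limit of counting in MDA-MB-231, with 0, 2 and 4 counts in DMSO and 0, 0 and 1 with ponatinib. It was too low to be tested, and the ratio of ponatinib to DMSO was 0.155 with an exact 95% interval from 0.00338 to 1.28. ELF3 and EHF therefore stood apart within the treated human cells. In 4T1, Ehf was counted at 44.1, 44.5 and 46.8 CPM with DMSO and at 58.6, 57.1 and 55.6 CPM with ponatinib, a log2 fold change of 0.34 (SE 0.08, adjusted p = 0.00168). Among all genes of 4T1, 29.4% of 13286 were called lower and 29.5% higher, a split of 3909 to 3925 that became 2935 to 4854 when total counts set the scale.

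ETS1, the founding member of the family and the most abundant of the 9 per kilobase in MDA-MB-231 (48.4 CPM per kb with DMSO), fell in both lines. The human libraries held 304, 367 and 367 CPM with DMSO and 148, 204 and 217 CPM with ponatinib, the lower value of each group being library 1. The groups did not overlap (log2 fold change -0.87, SE 0.13, adjusted p = 1.78e-04). Ets1 went from 160, 170 and 166 CPM to 80.0, 70.6 and 70.5 CPM in 4T1, a log2 fold change of -1.16 (SE 0.08, adjusted p = 1.21e-08).

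ETS2, the paralog of ETS1, did not follow it. In MDA-MB-231 it read 38.5, 43.3 and 44.6 CPM with DMSO and 44.5, 55.2 and 54.2 CPM with ponatinib. The groups overlapped, and the log2 fold change of 0.28 (SE 0.10, adjusted p = 0.0359) was called narrowly: the adjusted p was 0.0757 in DESeq2 and lay between 0.0557 and 0.151 when DMSO library 1, 2 or 3 or ponatinib library 2 or 3 was left out. With the replicate block it was 0.000568, and within each number the treated library was the higher one. Ets2 was the most abundant of the 9 genes in 4T1, at 55.1 CPM per kb, and held 344, 350 and 331 CPM with DMSO and 351, 334 and 322 CPM with ponatinib. Those groups overlapped as well (log2 fold change -0.03, SE 0.07, adjusted p = 0.772).

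ELF4 and ELK3 did not behave alike in the lines. ELF4 was 41.1, 36.2 and 42.8 CPM in MDA-MB-231 DMSO and 68.3, 67.8 and 78.1 CPM with ponatinib, a log2 fold change of 0.84 (SE 0.10, adjusted p = 2.08e-05). In 4T1 it fell, from 86.0, 85.0 and 79.8 CPM to 66.7, 61.0 and 60.3 CPM (log2 fold change -0.42, SE 0.08, adjusted p = 3.18e-04). No control library overlapped a treated one in either line. ELK3 was 131, 140 and 153 CPM in MDA-MB-231 DMSO and 45.1, 52.2 and 55.9 CPM with ponatinib. Its log2 fold change of -1.47 (SE 0.10, adjusted p = 3.54e-07) was the 262nd lowest. Elk3 in 4T1 read 118, 116 and 116 CPM with DMSO and 128, 127 and 127 CPM with ponatinib: the groups did not overlap, but the difference missed the threshold (log2 fold change 0.12, SE 0.07, adjusted p = 0.122). With total counts as the scale in place of TMM, which moved the median of all 4T1 genes to 0.12, it was 0.24 (adjusted p = 0.00546). Exons of Elk3 overlap those of Cdk17 on the opposite strand, which had 3179 counts with DMSO and 1645 with ponatinib.

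Taking the 9 genes of MDA-MB-231 first, 5 fell, 3 rose and EHF could not be tested, whereas in 4T1 4 fell, 2 rose and 3 had no call. The call rates over everything tested were 26.8% down and 27.2% up for the human line. For the mouse line they were 29.4% down and 29.5% up. The 2 of 9 that rose in 4T1 lay below its rate, and the other counts lay above theirs. The 3 that rose in MDA-MB-231 include ELF3, which entered the test only through its treated libraries. They also include ETS2, whose call was lost in DESeq2, where the count was 2. That count's place above 27.2% is therefore not read as a result about the members. Whether the members departed from these rates was not tested. The DMSO and ponatinib libraries did not overlap for 7 of 8 tested members in MDA-MB-231, against 60.4% of all genes, and for 7 of 9 in 4T1, against 63.4%. An exact two-sided permutation test of 3 libraries against 3 cannot go below p = 0.1 for a single gene, and gave 0.1 for each of these. Leaving out both libraries numbered 1, an alternative chosen after seeing the data, gave the same counts in each direction, with log2 fold changes of -3.59 for ETV4, -2.84 for ETV5 and 7.47 for ELF3 in MDA-MB-231 and -1.42 for Etv4 in 4T1.

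**Figure D2:**
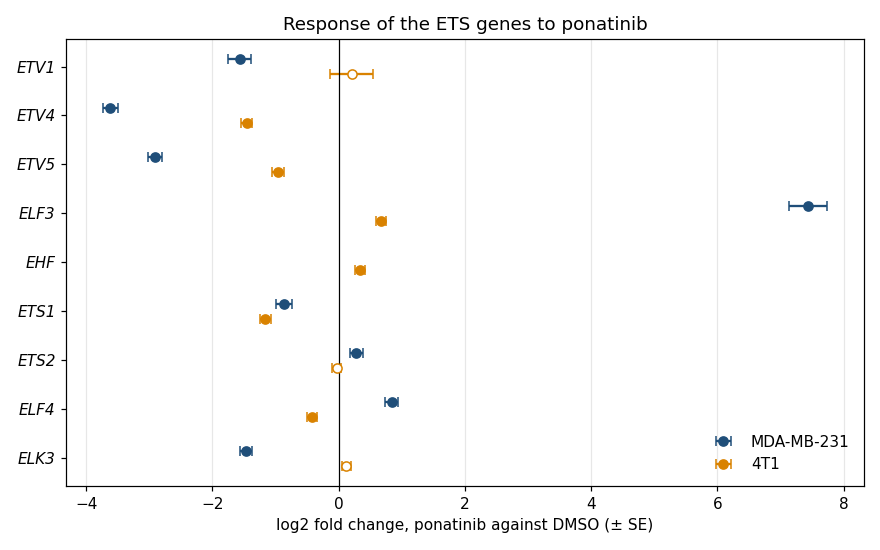
Log2 fold change of ponatinib against DMSO for each ETS gene (points, bars ± SE, 3 libraries against 3), blue for MDA-MB-231 and orange for 4T1, filled where the adjusted p was under 0.05; EHF was not tested in MDA-MB-231. ETV4 and ETV5 lie left of 0 in both lines and further left in MDA-MB-231, and the ELF3 point at 7.44 rests on 3 DMSO counts.

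The size of the response was then tested between the lines by an interaction of line and treatment over 12494 genes of shared symbol, fitted with all 12 libraries scaled together, so that its values differ slightly from the subtraction of the single-line values. A difference was called for 41.9% of those genes and for 7 of the 9 members. ETV4 responded less in 4T1 by 2.08 on the log2 scale (SE 0.14, adjusted p = 7.41e-10), ETV5 by 1.88 (SE 0.16, adjusted p = 1.77e-08) and ETV1 by 1.71 (SE 0.37, adjusted p = 8.51e-04). ELK3 showed a like gap of 1.52 (SE 0.12, adjusted p = 7.37e-09). The rise of ELF3 was smaller in 4T1 (difference -6.85, SE 0.30, adjusted p = 4.55e-12), a value that rests on the 3 human DMSO counts. ELF4 moved in opposite directions (difference -1.32, SE 0.12, adjusted p = 7.98e-08), and ETS2 differed by -0.38 (SE 0.12, adjusted p = 0.0161). The ETS2 call was lost, at an adjusted p between 0.0552 and 0.0913, without MDA-MB-231 ponatinib library 2, 4T1 DMSO library 1 or 2 or 4T1 ponatinib library 2 or 3. For ETS1 the difference of -0.37 (SE 0.16) missed the threshold with an adjusted p of 0.0728; with a replicate block it was -0.36 with an adjusted p of 0.00142, and without MDA-MB-231 ponatinib library 1 it was -0.52 with an adjusted p of 0.00176. EHF entered this fit only through its 4T1 libraries and had 7 human counts in all, so its fitted difference, 2.61 with an SE of 1.09, is not read as a difference between the lines.

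To see how much of the ETS transcript pool the members made up, CPM per kilobase of exon was summed over all listed family genes, 28 in human and 26 in mouse. The PEA3 genes held 19.5%, 17.5% and 17.1% of the pool in the MDA-MB-231 DMSO libraries and 3.05%, 3.10% and 2.58% with ponatinib. In 4T1 their share went from 20.2%, 18.9% and 19.6% to 8.56%, 8.92% and 9.50%. The starting shares, 18.0% ± 1.29 and 19.6% ± 0.607 (SD, n = 3), thus lay close together, although ETV1 contributed little in 4T1. ELF3 and EHF made up 8.61% ± 0.248 of the 4T1 pool with DMSO and 15.2% ± 0.366 with ponatinib, and in MDA-MB-231 0.0128% ± 0.0083 and 1.22% ± 0.118. In treated 4T1 cells the epithelial factors outweighed the PEA3 genes in every library, the reverse of the DMSO libraries. ETS1, ETS2, ELF4 and ELK3 together held 43.5% ± 2.63 with DMSO and 42.7% ± 1.97 with ponatinib in MDA-MB-231, with overlapping libraries. Their 4T1 share was 45.0% ± 0.354 with DMSO and 47.5% ± 0.350 with ponatinib, and those libraries did not overlap. The other listed ETS genes held 38.4% ± 1.35 of the MDA-MB-231 pool with DMSO and 53.2% ± 1.75 with ponatinib. For 4T1 these shares were 26.8% ± 0.401 and 28.3% ± 0.421, and libraries did not overlap in either line. The pool itself was 218 ± 5.50 CPM per kb with DMSO and 144 ± 12.7 with ponatinib in MDA-MB-231; the values for 4T1 were 238 ± 3.33 and 198 ± 6.06. The exact two-sided permutation p was 0.1, the smallest that 3 libraries against 3 allow, for every one of these shares but that of ETS1, ETS2, ELF4 and ELK3 in MDA-MB-231 (p = 0.5), so such separation was not particular to the PEA3 or epithelial genes.

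**Figure D3:**
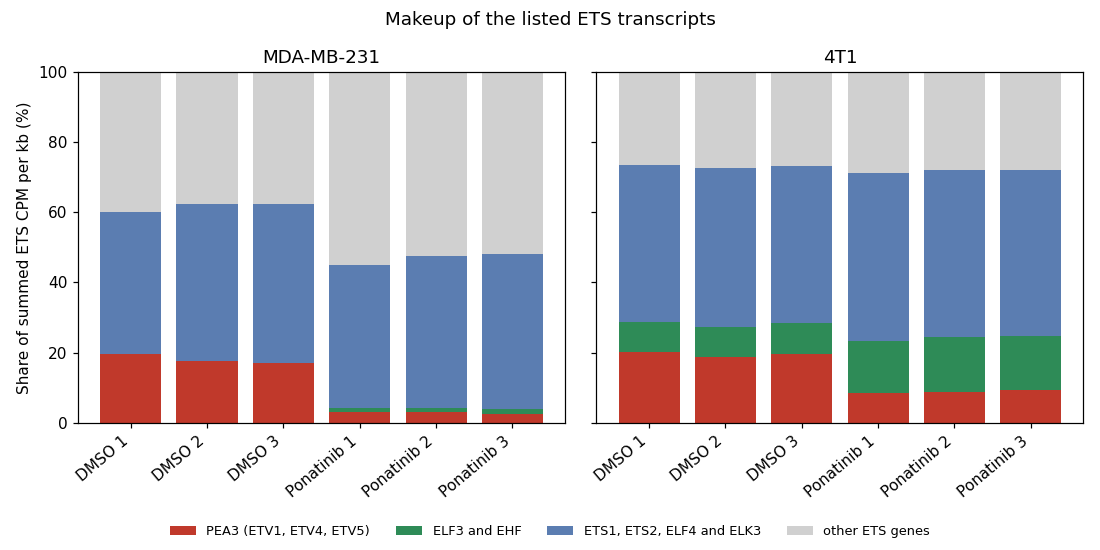
Share in percent of the summed CPM per kb of all listed ETS genes held by the PEA3 genes (red), ELF3 and EHF (green), ETS1, ETS2, ELF4 and ELK3 (blue) and the other ETS genes (grey) in each library. In MDA-MB-231 the red part shrinks from a mean of 18.0% to 2.91%; in 4T1 it shrinks from 19.6% to 8.99% while the green part grows from 8.61% to 15.2%.

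The order of the members by CPM per kb changed accordingly. In MDA-MB-231 DMSO it ran from ETS1 (48.4) through ELK3 (30.4), ETV4 (25.2), ETV5 (12.8), ETS2 (8.47), ELF4 (7.64) and ETV1 (1.19) down to EHF and ELF3 (0.0192 and 0.00900), with overlapping libraries between ETS2 and ELF4 and between EHF and ELF3. With ponatinib, ETS1 stayed first at 26.5 and ELF4 came second at 13.6. ELK3 and ETS2 overlapped behind it (11.0 and 10.3), and ETV4, ELF3 and ETV5 formed an overlapping run at 2.06, 1.75 and 1.71. In 4T1 DMSO, Ets2 and Etv4 led at 55.1 and 40.8. Elk3 and Ets1 overlapped (20.1 and 19.5), as did Elf4 and Elf3 (both 12.5), with Ehf at 8.03, Etv5 at 5.69 and Etv1 at 0.0729 below them. Treated 4T1 cells kept Ets2 first at 54.1, and Elf3 at 19.8 stood above Etv4 at 14.8.

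Among the other ETS genes, of 19 listed in human, 11 were tested in MDA-MB-231, with 3 lower, 2 higher and a median log2 fold change of 0.17 beside 0.02 over all genes. With 26.8% of all MDA-MB-231 genes lower and 27.2% higher, these counts are near or below the background. ETV7, a repressor related to ETV6, was the one listed gene that changed by over 1 on the log2 scale with at least 1 CPM in the higher group. It went from 0.796, 0.583 and 1.01 CPM to 2.46, 1.72 and 1.81 CPM (log2 fold change 1.31, SE 0.32, adjusted p = 0.00445). With 12, 9 and 16 DMSO counts it entered the test only through its treated libraries. SPDEF, a prostate and mammary luminal ETS factor, fell from 16.3, 11.3 and 13.1 CPM to 9.40, 6.69 and 6.24 CPM (log2 fold change -0.87, SE 0.18, adjusted p = 0.00187). ELF3 was thus the one epithelial ETS gene that rose there, since SPDEF fell and ELF5, the luminal progenitor factor, had 0 counts in all 6 libraries. In 4T1, 8 of 17 were tested, 4 were lower and none higher, beside 29.4% lower and 29.5% higher among all genes. Their median was -0.19 beside 0.00 over all genes. Elf5 had 3 counts and Spdef 2 over the 6 libraries. The neighbors that lie next to members on the chromosome stayed at the floor: FLI1, 99.0 kb from ETS1, had 9 counts with DMSO and 1 with ponatinib, ERG, 143.4 kb from ETS2, had 0 and 1, and Fli1 and Erg had none in 4T1.

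The ERK output list held 14 genes used as a readout of ERK signaling, most of them feedback inhibitors and immediate-early or delayed-early factors. In MDA-MB-231, 13 of 14 fell and none rose (median log2 fold change -1.59), beside 26.8% lower among all genes. This list, like the members and the other lists, was chosen with earlier results of these data known. Counts set beside the rates over all genes therefore describe the lists and cannot show an excess. The 3 with the lowest values were SPRY4, an inhibitor of receptor tyrosine kinase signaling (-3.12, SE 0.13), DUSP5, a nuclear ERK phosphatase (-2.72, SE 0.10), and FOSL1, an AP-1 subunit (-2.72, SE 0.09). DUSP6, the cytoplasmic ERK phosphatase, went from 122, 158 and 162 CPM to 33.2, 45.0 and 49.3 CPM (-1.79, SE 0.15, adjusted p = 1.42e-06). In 4T1, where 29.4% of all genes fell, 12 fell, 1 rose and the median was -0.91, led by Fosl1 (-1.62, SE 0.08), Ier3, an immediate-early survival gene (-1.37, SE 0.11), and Dusp5 (-1.34, SE 0.08). Dusp6 read 430, 421 and 395 CPM with DMSO and 260, 226 and 231 CPM with ponatinib (-0.80, SE 0.08, adjusted p = 8.60e-07). ETV4 at -3.62 was thus below every gene of this list in MDA-MB-231, whereas Etv4 at -1.46 lay between Fosl1 and Ier3 in 4T1.

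Of 13 genes that control PEA3 transcription, activity or protein turnover, 1 fell and 4 rose in MDA-MB-231 (median 0.13), and 6 fell and 2 rose in 4T1 (median -0.11). These counts are to be read against the 26.8% lower and 27.2% higher of all MDA-MB-231 genes and the 29.4% and 29.5% of 4T1; the 4 that rose of 13 are near that background. CIC, the Capicua repressor, rose in MDA-MB-231 from 161, 150 and 156 CPM to 225, 220 and 249 CPM (log2 fold change 0.57, SE 0.08, adjusted p = 6.62e-05). Cic in 4T1 read 197, 172 and 155 CPM with DMSO and 183, 153 and 162 CPM with ponatinib, with overlapping groups (-0.07, SE 0.09, adjusted p = 0.529), and its response differed between the lines by -0.72 (SE 0.13, adjusted p = 1.56e-04). COP1, the ligase that degrades ETV proteins, passed the test in neither line (-0.10 and -0.08, adjusted p = 0.373 and 0.424). The largest changes in MDA-MB-231 were in the COP1 scaffolds, TRIB1 (-0.91, SE 0.13) falling and TRIB2 (0.78, SE 0.10) rising. In 4T1 they were in Det1 (0.50, SE 0.08), a partner of COP1 in its ligase complex, Trib2 (-0.43, SE 0.12) and Atxn1 (-0.39, SE 0.10), a partner of Capicua. Trib2 and TRIB2 thus had opposite signs.

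Among 15 genes known as targets of PEA3 factors, 8 fell and 1 rose of 11 tested in MDA-MB-231 (median -0.66), and 6 fell and 2 rose of 9 in 4T1 (median -0.35), beside backgrounds of 26.8% and 29.4% lower. PTGS2, the inducible cyclooxygenase, went from 37.3, 44.6 and 43.4 CPM to 3.03, 4.71 and 3.67 CPM in MDA-MB-231 (-3.46, SE 0.15, adjusted p = 1.50e-08). Ptgs2 in 4T1 went from 1110, 1100 and 1070 CPM to 163, 142 and 136 CPM (-2.90, SE 0.09, adjusted p = 8.19e-12). In MDA-MB-231 it was followed in size by the protease MMP3 (-2.87, SE 0.09) and by PLAUR, the urokinase receptor (-2.45, SE 0.08). In 4T1 the other genes among the 3 largest changes were the protease Mmp13 (-2.98, SE 0.11) and the matrix protein Spp1 (-1.96, SE 0.09). Whether these changes depended on the PEA3 factors was not tested.

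The 20 epithelial genes, junction proteins, keratins and their regulators, split between the lines. In MDA-MB-231, 9 of 14 tested rose and none fell (median 0.67), and in 4T1 1 of 16 rose and 7 fell (median -0.12), beside backgrounds of 27.2% higher in the human and 29.4% lower in the mouse line. LCN2, a secreted siderophore-binding protein, went from 0.663, 0.583 and 0.440 CPM to 4.29, 3.38 and 2.96 CPM in MDA-MB-231 (2.64, SE 0.30, adjusted p = 1.88e-05). ST14, the protease matriptase, rose by 1.89 on the log2 scale (SE 0.31), from 0.730, 0.453 and 0.629 CPM to 2.46, 2.29 and 2.03 CPM. LCN2, ST14 and ESRP1 held 26, 28 and 21 DMSO counts in MDA-MB-231 and entered the test only through their treated libraries. Genes this low could join the 14 only by being higher with ponatinib, which limits what the count of 9 shows. CDH1, OVOL1 and GRHL2 stayed at 2 counts or fewer per group. In 4T1 the largest falls were in Grhl1 (-1.54, SE 0.22), Esrp1 (-1.45, SE 0.27) and Cldn4 (-1.41, SE 0.23), the first a transcription factor of epithelial barriers, the second a splicing factor and the third a tight-junction protein. Of 5 mesenchymal markers, 4 were tested in each line. In MDA-MB-231, VIM (-0.66) and ZEB1 (-0.50) fell, FN1 rose (0.75) and SNAI2 was not called (0.25). In 4T1, Fn1 (-1.82), Snai2 (-0.89) and Zeb1 (-0.36) fell and Vim was not called (0.15). Their summed level was 1380 to 1560 CPM with DMSO and 992 to 1160 CPM with ponatinib in the human libraries. In the mouse ones it was 6530 to 7470 and 4460 to 4870 CPM. CDH2 and Cdh2 held 7 and 8 counts, and the part of these markers in the epithelial changes was not tested. So Elf3 and Ehf rose in 4T1 while 7 of the 16 epithelial genes fell, and ELF3 rose in MDA-MB-231 along with 9 of 14.

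**Figure D4:**
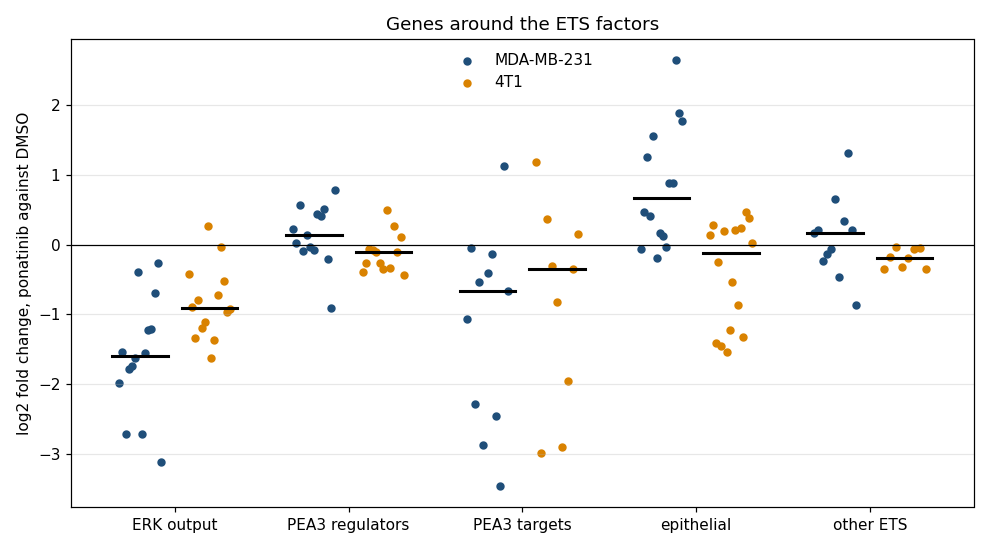
Log2 fold change of ponatinib against DMSO for each tested gene (points) of the 5 lists around the ETS factors, blue for MDA-MB-231 and orange for 4T1, with the median of each list as a black bar. The ERK output medians are -1.59 and -0.91, and the epithelial medians 0.67 and -0.12.

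Without both libraries numbered 1, the counts were 14 of 14 lower for ERK output, 9 lower and 0 higher for PEA3 targets and 9 higher for epithelial genes in MDA-MB-231, and 12 lower, 6 lower and 2 higher, and 7 lower and 3 higher in 4T1; this alternative was chosen after seeing the data. The epithelial count of 1 gene higher in 4T1 thus moved to 3. In this setting 4362 of all 14774 MDA-MB-231 genes were lower and 4293 higher, beside 3918 and 3975 of 14610 in the reported fit. For 4T1 the numbers were 4048 and 4031 of 13390, beside 3909 and 3925 of 13286.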

How the data were processed

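Libraries were made from total RNA with the NEBNext Ultra kit and sequenced on a NovaSeq6000. The authors removed adapters and poly-N reads, mapped the reads by HISAT2 (genome hg38 or GRCm39) and deposited raw HTSeq counts per gene, not normalized; versions, annotation and strand setting are not given in the sources used here. Identifiers were named from GENCODE v44 and vM39, which matched 81.9% of the human identifiers (99.3% of counts) and 91.1% of the mouse ones (99.8%). Each line was fitted by the quasi-likelihood method of edgeR 4.0.16 under R 4.3.3, after filterByExpr and TMM scaling and with Benjamini-Hochberg adjustment; the fit was tested on simulated data. DESeq2 1.42.0, other scalings and filters, a replicate block and left-out libraries were alternatives. Same-numbered libraries deviated together (correlations over genes for MDA-MB-231 0.345, 0.111 and 0.133, for 4T1 0.213, 0.119 and 0.115, all above 0.1), so the numbers were taken as pairs, although only 4 of 6 DMSO libraries correlated best with their own number; the fit reported has no block. The members and lists were chosen with earlier results of these data known. Named beside them are other ETS genes called with an absolute log2 fold change of at least 1 and at least 1 CPM, SPDEF and ELF5, CIC, COP1 and DUSP6, and the 3 largest called changes per list and line, of which 1 is not reported here; neighbors and markers were named after their values were seen.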

Additional observations from a re-analysis of the deposited data

Results flagged for a closer look

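The responses of 7 members differed between the lines by the interaction test, at a rate to be read against the 41.9% of all 12494 genes that did so. As the log2 response in 4T1 minus that in MDA-MB-231, the differences were 1.71 for ETV1, 2.08 for ETV4, 1.88 for ETV5 and 1.52 for ELK3, and -6.85 for ELF3, -1.32 for ELF4 and -0.38 for ETS2. Of these, ELF4 was called in opposite directions in the 2 lines, ELK3 and ETV1 fell in MDA-MB-231 and were not called in 4T1, and ETV4 and ETV5 fell in both. The ELF3 value rests on 3 human DMSO counts. Species, line and annotation cannot be told apart in this comparison.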

How the results depend on the processing

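Counts of members and of all genes called stayed within 1.5 times of the reported ones under every alternative run. Members lower in MDA-MB-231 were 5 in each, members higher 2 or 3, members lower in 4T1 4 in each, members higher 2 or 3, and members with a difference between lines 6 to 9. Of the values of single members under alternatives, 368 kept direction and side of the threshold, 7 gained a call, 12 lost one and 2 turned sign. The sign turned for Ets2 in 4T1, near no change: it was 0.09 with total counts and ran from -0.06 to 0.00 when single libraries were left out, the latter without ponatinib replicate 3. All calls lost were of ETS2, in MDA-MB-231 or in the difference between lines (-0.30 with total counts, -0.30 to -0.33 without MDA-MB-231 ponatinib replicate 2 or without 4T1 DMSO replicate 1 or 2 or ponatinib replicate 2 or 3). Calls were gained by Elk3 in 4T1 with total counts and by the EHF and ETS1 differences. Under the replicate block the ETS1 difference was -0.36; the EHF difference, on 7 human counts, ran from 1.71 to 4.60 and its calls are not read. No other call of a member changed under the block. Without the 4 libraries numbered 1, an alternative chosen after seeing the data, the ETS1 difference was -0.51 (adjusted p = 2.94e-05). With total counts the median over all genes was 0.11 for MDA-MB-231 and 0.12 for 4T1, and the share of calls that were higher was 60.0% against 50.4% and 62.3% against 50.1%. Requiring 10 counts in each library left out ELF3 in MDA-MB-231. Depth limits EHF in MDA-MB-231, at 7 counts in all. The causes of these shifts were not tested.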
